A study of Mus musculus with 4 samples.

Results

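Respiratory complex I, NADH:ubiquinone oxidoreductase, is the entry point of the mitochondrial electron transport chain. It takes electrons from NADH in the matrix, passes them along iron-sulfur clusters to ubiquinone and pumps protons across the inner membrane. Its core subunits carry the redox groups and the proton channels and are conserved from bacteria, and accessory subunits surround and stabilise them. Part of the core is encoded in mitochondrial DNA and the rest of the complex in the nucleus. In the intestinal epithelium, absorptive cells and crypt base stem cells both depend on mitochondrial respiration.

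The members described here are the 37 of 29871 rows of an mRNA table whose symbol has the form of a nuclear-encoded complex I subunit (Nduf, then A, B, C, S or V, then a number). Of these, 7 are core subunits, 28 are accessory subunits and 2, Ndufa4 and Ndufa4l2, bear the name without being counted as subunits. All 37 passed the filter of a mean of at least 1 FPKM (fragments per kilobase of transcript per 1e6 mapped fragments). The accessory subunit Ndufab1, the mitochondrial acyl carrier protein, falls outside the naming rule, and assembly factors are described apart.

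RNA came from adenomas of the small intestine of mice. The tested genotype was PAF KO; APC Min/+ (called PAF KO here), and its control was APC Min/+ with wild-type PAF, with 2 libraries each. The Min allele truncates 1 copy of the tumour suppressor Apc and was carried by both groups. PAF is read here as the factor that binds PCNA, the replication clamp, which the labels do not spell out. The labels give no age, no pooling and no account of which part of the PAF gene was deleted. They do not state that libraries came from separate animals, so p-values measure only the spread between these samples. Between the controls that spread may be technical. The PAF KO libraries differed in Xist and in a Y-linked gene, as given below, so they came from different animals and their spread includes a difference of sex.

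The libraries held roughly 15.3 and 23.8 x 1e6 fragments in PAF KO adenomas, and 12.9 and 17.3 x 1e6 in controls, as estimated from the smallest FPKM steps. The PAF row (2810417H13Rik) read 4.13 and 11.4 FPKM in PAF KO adenomas, against 17.9 and 17.8 FPKM in controls. PAF KO library 2 stood apart from the others. Xist stood at 46.4 FPKM there and at no more than 0.00861 FPKM in the other 3 libraries. The Y-linked Eif2s3y was listed at 0 there, and read 25.98 FPKM in PAF KO library 1, against 31.7 and 31.0 FPKM in controls. Over the 37 members the median distance between the libraries of a group was 0.52 on the log2(FPKM + 1) scale for PAF KO and 0.12 for controls, and over all 13716 tested rows it was 0.49 and 0.09. Epithelial identity was clear in all libraries. Epcam, an epithelial adhesion protein, read 945 and 1342 FPKM in PAF KO adenomas and 1006 and 946 FPKM in controls.

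Most complex I transcripts lay higher in PAF KO adenomas, by small amounts in library 1 and by very unequal amounts in library 2. In 23 of the 37 members both PAF KO libraries exceeded both controls, against 21.5% of all tested rows. Both PAF KO libraries lay below both controls in 2 members, Ndufa6 and Ndufa4l2, against 30.2% of all rows. All fold changes were computed from log2(FPKM + 1), where the added 1 makes those of low rows too small. Their median was 0.43 over the members and 0.0 over all rows. No member was called by limma at an adjusted p under 0.05, where 10 rows (0.0729%) were called. At an unadjusted p under 0.05, 3 members were higher (Ndufb10, Ndufb5 and Ndufa5) and 0 lower, against 3.44% and 9.76% of all rows. An exact 2-sided permutation test of 2 against 2 libraries cannot go below p = 0.333.

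**Figure D1:**
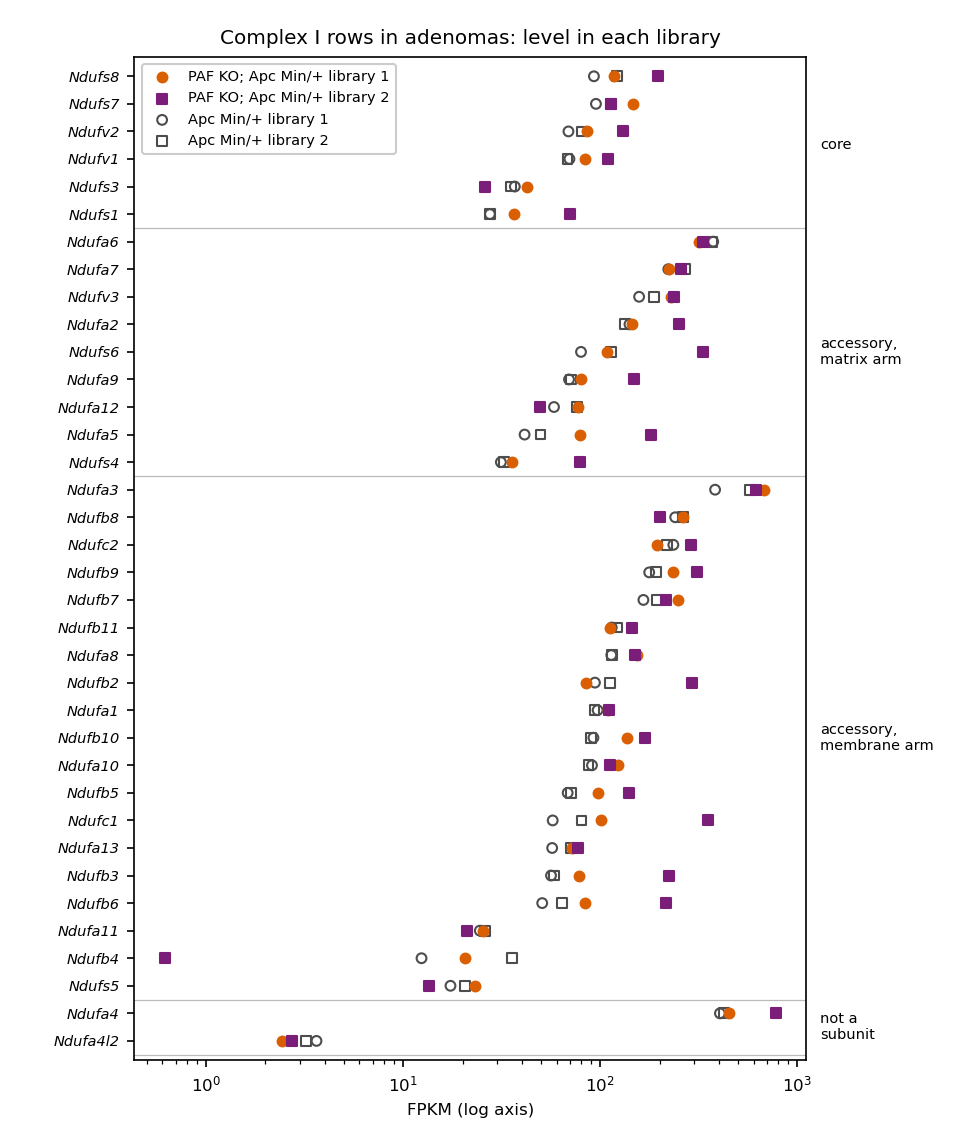
Level of the complex I rows named in the text in every library, in FPKM on a log axis. Filled circles and squares are PAF KO libraries 1 and 2, and open circles and squares are control libraries 1 and 2. The rows are split into core subunits, accessory subunits of the matrix and membrane arms, and the 2 rows that are not subunits. Most rows sit near 100 FPKM, Ndufb4 in PAF KO library 2 lies at 0.618 FPKM, and Ndufc1, Ndufb3 and Ndufb6 in that library lie far right of the other 3.

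In the controls, member means spanned 3.42 to 479.9 FPKM with a median of 90.9 FPKM. Ndufa3 was the highest and Ndufa4l2 the lowest. PAF KO library 1 lay above both controls for 26 members (31.2% of all rows did so) and below both for 5 (56.2% of all rows). PAF KO library 2 lay above both for 28 members (51.3% of all rows) and below both for 8 (41.7%). The differences from the control mean ran between -0.37 and 0.79 on the log2 scale in library 1, and between -3.78 and 2.36 in library 2. Only Ndufa5 passed 1.5-fold higher in library 1 on that scale, whereas 17 members did in library 2, and Ndufb4 alone passed 1.5-fold lower, in library 2.

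The core subunits had a median log2 fold change of 0.46, with 0.24 in PAF KO library 1 and 0.66 in library 2. Both PAF KO libraries exceeded both controls for 5 of the 7, against 21.5% of all tested rows. Ndufv1, which binds NADH and the flavin, read 83.3 and 109 FPKM in PAF KO adenomas, against 69.7 and 68.2 FPKM in controls. Ndufv2, its partner at the tip of the matrix arm with an iron-sulfur cluster, read 85.4 and 131 FPKM in PAF KO adenomas, against 68.9 and 80.7 FPKM in controls. Both genes had groups that did not overlap, with log2 fold changes of 0.46 (SE 0.21; limma adjusted p = 0.439) and 0.50 (SE 0.28; limma adjusted p = 0.493).

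Ndufs1, the largest core subunit, carries further iron-sulfur clusters and showed the widest core difference. It read 36.5 and 70.1 FPKM in PAF KO adenomas, against 27.5 and 27.5 FPKM in controls. Its log2 fold change was 0.85 (SE 0.37; limma adjusted p = 0.421), and library 2 stood well above library 1. Ndufs7, at the ubiquinone site, read 146 and 113.4 FPKM in PAF KO adenomas, against 95.05 and 113.1 FPKM in controls, so library 2 only just exceeded the higher control (log2 fold change 0.31, SE 0.23; limma adjusted p = 0.561). It carries the last iron-sulfur cluster of the chain.

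Ndufs8, which holds iron-sulfur clusters on the path to the ubiquinone site, read 118 and 196 FPKM in PAF KO adenomas, against 92.8 and 122 FPKM in controls. PAF KO library 1 lay between the controls, so the groups overlapped (log2 fold change 0.51, SE 0.34; limma adjusted p = 0.544). Ndufs3, a core subunit without a redox group, read 42.7 and 26.1 FPKM in PAF KO adenomas, against 36.8 and 35.3 FPKM in controls. It was the single core subunit with opposite directions in the PAF KO libraries, and its log2 fold change was -0.11 (SE 0.29; limma adjusted p = 0.861).

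**Figure D2:**
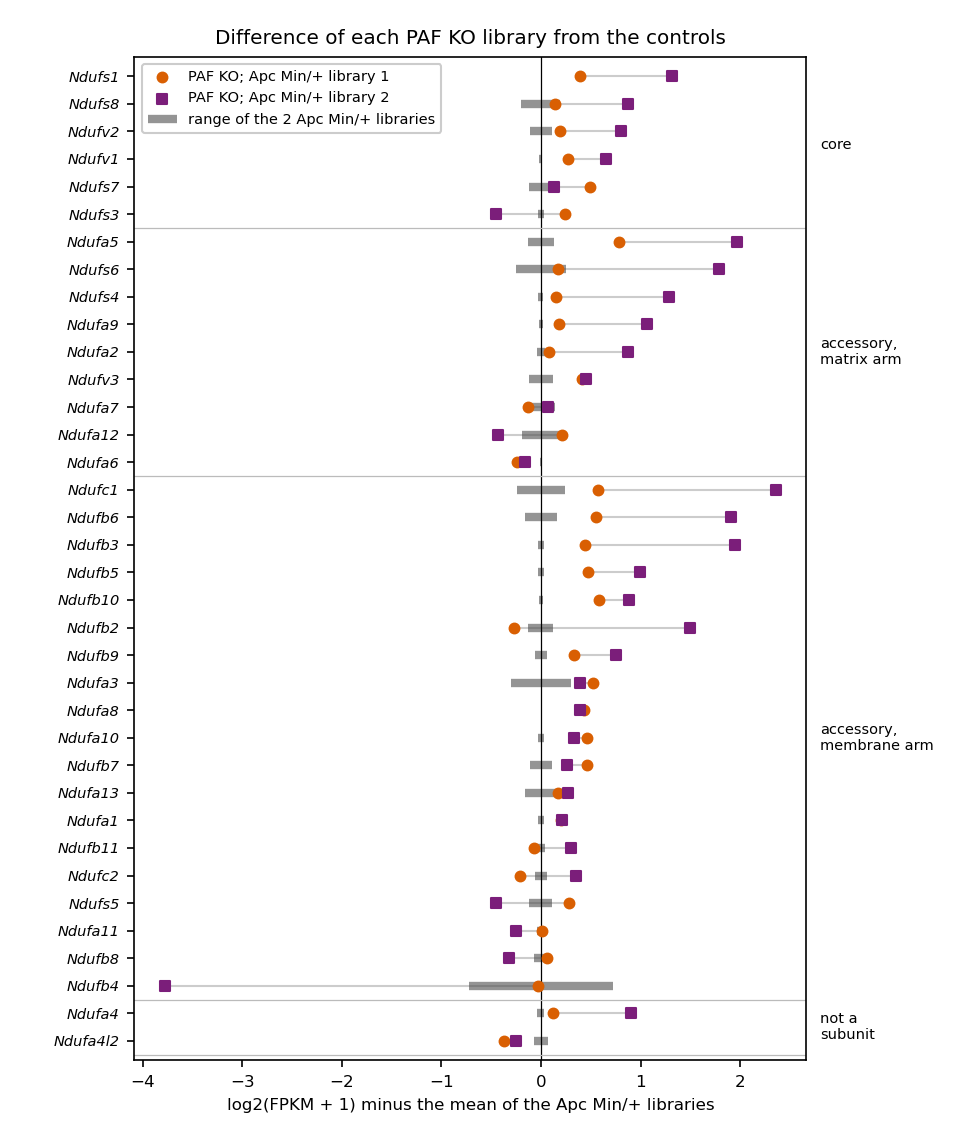
Difference of each PAF KO library from the mean of the controls for the members named in the text, on the log2(FPKM + 1) scale. Circles are PAF KO library 1, squares are PAF KO library 2 and grey bars span both controls. Library 1 lies between -0.37 and 0.79 throughout, while library 2 reaches 2.36 for Ndufc1 and -3.78 for Ndufb4.

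Accessory subunits had a median log2 fold change of 0.42, with 0.20 in PAF KO library 1 and 0.40 in library 2. Of the 28, 17 had both PAF KO libraries above both controls, against 21.5% of all tested rows. The members of smallest p were Ndufb10, Ndufb5 and Ndufa5. Ndufb10, a cysteine-rich subunit of the membrane arm, read 136 and 168 FPKM in PAF KO adenomas, against 92.3 and 89.5 FPKM in controls (log2 fold change 0.73, SE 0.19; limma adjusted p = 0.318). Ndufb5, also of the membrane arm, read 97.3 and 139.5 FPKM in PAF KO adenomas, against 68.3 and 70.9 FPKM in controls (log2 fold change 0.73, SE 0.24; limma adjusted p = 0.360). Ndufa5, of the matrix arm, read 79.0 and 180.5 FPKM in PAF KO adenomas, against 41.3 and 49.7 FPKM in controls (log2 fold change 1.38, SE 0.46; limma adjusted p = 0.364). In these 3 genes each PAF KO library stood clear of both controls, and library 2 was the higher. Their choice by smallest p favours groups that do not overlap.

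Among the other accessory subunits of the matrix arm, PAF KO library 2 set the size of several differences. Ndufs4, whose loss in mice causes an encephalopathy like Leigh syndrome, read 35.6 and 79.3 FPKM in PAF KO adenomas, against 31.3 and 32.5 FPKM in controls. The zinc-binding subunit Ndufs6 read 108 and 331 FPKM in PAF KO adenomas, against 79.8 and 113 FPKM in controls, so that library 1 lay within the controls. Ndufa9, near the joint of the arms, read 79.8 and 147 FPKM in PAF KO adenomas, against 69.4 and 71.0 FPKM in controls. Ndufa2, with a thioredoxin fold, read 144 and 251 FPKM in PAF KO adenomas, against 141 and 133 FPKM in controls. For Ndufv3, a small subunit of the NADH-binding module, the PAF KO libraries lay close together, at 228 and 235 FPKM against 157 and 187 FPKM in controls. Ndufa12, a relative of the assembly factor Ndufaf2, differed in direction between the PAF KO libraries, at 77.2 and 49.3 FPKM against 58.2 and 76.4 FPKM in controls. Ndufa7 read 223 and 257 FPKM in PAF KO adenomas, both within the range of 221 and 271 FPKM in controls.

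In the membrane arm the highest fold changes were those of Ndufc1, Ndufb6 and Ndufb3, and the lowest that of Ndufb4, given further on. Ndufc1 read 101.2 and 352 FPKM in PAF KO adenomas, against 57.4 and 80.2 FPKM in controls, so library 2 stood at 512% of the control mean and library 1 at 147%. Ndufb3 read 78.2 and 224 FPKM in PAF KO adenomas, against 56.2 and 58.3 FPKM in controls. Its coding sequence has near-identical copies in other genes, so its values are uncertain, as described further on. Ndufb6 read 83.6 and 216 FPKM in PAF KO adenomas, against 50.7 and 63.7 FPKM in controls. The groups did not overlap in these 3 genes. The log2 fold change was 1.46 ± 0.69 (SE) for Ndufc1, 1.20 ± 0.57 for Ndufb3 and 1.23 ± 0.53 for Ndufb6, with limma adjusted p values of 0.448, 0.449 and 0.423. With the trend on transcript length and GC content removed, which is described further on, they came to 0.996 for Ndufc1, 0.68 for Ndufb3 and 0.84 for Ndufb6. Ndufb2 read 84.7 and 291 FPKM in PAF KO adenomas, against 93.9 and 112 FPKM in controls, so that library 1 lay below both controls and library 2 above them.

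The PAF KO libraries lay close together for Ndufa8 and Ndufa10. Ndufa8, with paired cysteine motifs, read 154 and 150.2 FPKM in PAF KO adenomas, against 113.7 and 114.2 FPKM in controls (log2 fold change 0.41, SE 0.16; limma adjusted p = 0.401). Ndufa10, which resembles nucleoside kinases, read 123 and 112 FPKM in PAF KO adenomas, against 90.7 and 87.2 FPKM in controls (log2 fold change 0.40, SE 0.17; limma adjusted p = 0.417). Ndufa3, Ndufa13 (also known as Grim19), Ndufb7 and the LYR-motif subunit Ndufb9 likewise had both PAF KO libraries above both controls, and their log2 fold changes came to 0.46, 0.22, 0.36 and 0.54. For Ndufc2 the PAF KO libraries lay on either side of the controls (195 and 288 FPKM, against 235 and 217 FPKM in controls). Its log2 fold change of 0.07 turned to -0.29 with that trend removed.

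Of the accessory subunits, the 3 with the lowest fold changes were Ndufb4, Ndufa6 and Ndufb8. Ndufb4, a membrane arm subunit, read 20.7 and 0.618 FPKM in PAF KO adenomas, against 12.4 and 35.7 FPKM in controls. The library 2 value rested on an estimated 14.3 fragments, and the control libraries themselves lay far apart. Its log2 fold change was -1.90 (SE 1.46; limma adjusted p = 0.572). Ndufa6, an LYR-motif subunit of the matrix arm, read 316 and 334 FPKM in PAF KO adenomas, against 374 and 370.0 FPKM in controls, and was the single subunit with both PAF KO libraries below both controls (log2 fold change -0.20, SE 0.18; limma adjusted p = 0.627). Ndufb8, often used as a protein marker of assembled complex I, read 262 and 201 FPKM in PAF KO adenomas, against 239.9 and 264 FPKM in controls (log2 fold change -0.13, SE 0.23; limma adjusted p = 0.777). Ndufs5 and Ndufa11 were also lower than both controls in library 2 alone, at 23.2 and 13.6 FPKM in PAF KO adenomas against 17.4 and 20.6 FPKM in controls for Ndufs5, and at 25.4 and 20.97 FPKM against 24.5 and 25.98 FPKM in controls for Ndufa11.

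Ndufa1 and Ndufb11 are on the X chromosome, and the libraries differed in sex as given above. Ndufa1 read 109.7 and 110.5 FPKM in PAF KO adenomas, against 96.9 and 93.5 FPKM in controls. The PAF KO libraries were nearly equal, and the log2 fold change of 0.21 (SE 0.16; limma adjusted p = 0.572) turned to -0.26 with the length and GC trend removed. Ndufb11 read 112 and 146 FPKM in PAF KO adenomas, against 114 and 121 FPKM in controls, with library 1 just under both controls. Its log2 fold change was 0.12 (SE 0.21; limma adjusted p = 0.789), and -0.03 with the trend removed.

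The rows named like subunits but placed elsewhere behaved unlike each other. Ndufa4, a component of cytochrome c oxidase (complex IV), read 452 and 778 FPKM in PAF KO adenomas, against 405 and 425 FPKM in controls (log2 fold change 0.52, SE 0.34; limma adjusted p = 0.541), and its fold change came to -0.06 with the trend removed. Its paralog Ndufa4l2, induced by hypoxia through HIF, read 2.43 and 2.71 FPKM in PAF KO adenomas, against 3.63 and 3.21 FPKM in controls (log2 fold change -0.31, SE 0.19; limma adjusted p = 0.520). The Ndufa4l2 levels are low and rested on an estimated 34.7 to 60.3 fragments a library.

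Promoters were searched because most members lay in the same direction. For 32 of the 37 members RefSeq promoters (assembly GRCm38.p6, 250 bases before to 50 after the start) were in the reference. Both strands were read for the letters AAGATGGCG (YY1), GCATGCGC (part of the NRF1 site), CCGGAAGT (GABPA) and TCAAGGTCA (ESRRA). These are motifs, or part of one, of factors that act on mitochondrial genes. The 4 words do not contain one another. Members were counted by gene and all promoters by entry, so the shares set side by side below are not like for like. The YY1 word stood in 5 members (15.6%), against 1.4% of all 32851 promoters, and in each of them its ATG was the start codon of the coding sequence, matched over 10 coding bases. The 30-base windows follow, 5′ to 3′ on the gene's strand, with the YY1 word in capitals.
Ndufa9 (chr6:126849096-126849125, minus strand): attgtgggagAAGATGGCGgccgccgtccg
Ndufc1 (chr3:51408914-51408943, minus strand): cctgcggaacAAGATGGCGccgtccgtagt
Ndufs4 (chr13:114388045-114388074, minus strand): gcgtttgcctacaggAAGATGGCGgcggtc
Ndufs6 (chr13:73328433-73328462, minus strand): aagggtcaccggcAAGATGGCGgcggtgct
Ndufs7 (chr10:80249463-80249492, plus strand): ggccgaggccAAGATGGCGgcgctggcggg

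In PAF KO library 2 these 5 genes differed from the control mean by 1.06, 2.36, 1.29, 1.79 and 0.13 on the log2 scale in the order printed. In library 1 they differed by 0.18, 0.57, 0.16, 0.18 and 0.49. The medians over all members were 0.40 in library 2 and 0.20 in library 1. Their log2 fold changes were 0.62, 1.46, 0.72, 0.98 and 0.31. Ndufa9, Ndufc1 and Ndufs4 have transcripts of 48.0, 44.1 and 43.1% GC, a range that read higher in library 2 across all protein-coding rows, as given further on. The NRF1 word stood in 3 members (9.38%), against 2.71% of all promoters. Its windows are printed because these genes differed in direction, with the NRF1 word in capitals.
Ndufa8 (chr2:36049328-36049357, minus strand): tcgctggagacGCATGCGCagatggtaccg
Ndufa6 (chr15:82354356-82354385, minus strand): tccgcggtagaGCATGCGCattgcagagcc
Ndufa11 (chr17:56717693-56717722, plus strand): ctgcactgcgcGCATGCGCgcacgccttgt

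The log2 fold changes of these 3 were 0.41 for Ndufa8, -0.20 for Ndufa6 and -0.12 for Ndufa11. The GABPA word stood in 1 member, Ndufs3 (3.12% of members and 3.89% of all promoters), and the ESRRA word in 0 (0.423% of all promoters). These matches describe letters only.

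The size of the differences in PAF KO library 2 went with the base composition of the transcripts. Across the 37 members the Spearman correlation of the library 2 difference with the GC content of the principal transcript was -0.476, and across 12580 protein-coding rows, which share the same libraries, it was -0.543. In library 1 these were -0.043 and -0.102. In library 2, members with at most 45% GC had a median difference of 1.39 (6 members), against 0.65 for all protein-coding rows in that range, and those of 45 to 50% GC had 0.99 (7 members), against 0.30. Members of 50 to 55% GC had 0.32 (12 members), against -0.08, and members above 55% GC had 0.27 (12 members), against -0.44. In each of the 4 ranges, in both libraries, the members' median lay above that of the rows of like GC content. In library 1 it was 0.17, 0.28, 0.19 and 0.22 from the lowest to the highest range, against -0.09, -0.09, -0.13 and -0.19 for all protein-coding rows. These ranges match GC content and not transcript length, whose median was 908 bases for members and 2941.5 bases for all protein-coding rows. Across protein-coding rows the library 1 difference had a Spearman correlation of -0.178 with length.

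**Figure D3:**
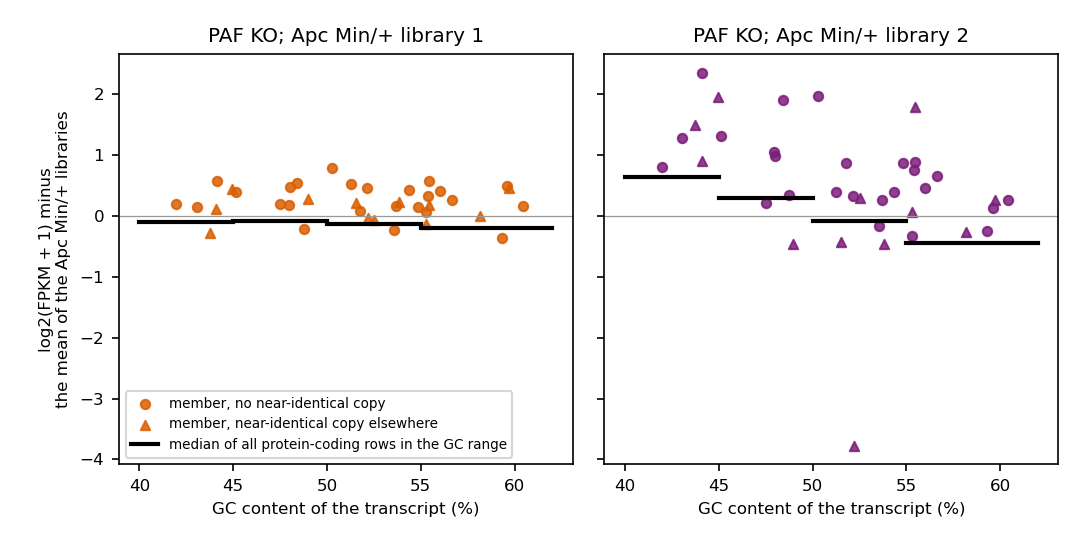
Difference of PAF KO library 1 (left) and library 2 (right) from the mean of the controls on the log2(FPKM + 1) scale, against the GC content of each member's transcript in percent. Points are members, triangles being those with a near-identical coding sequence elsewhere, and black lines are medians of all protein-coding rows in 4 ranges of GC content. The black line falls with GC content in library 2 (0.65 to -0.44 over the 4 ranges), and most points lie above it in both panels.

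With the trend on transcript length and GC content taken out of each library, the median log2 fold change was 0.48 for core and 0.34 for accessory subunits. Both PAF KO libraries then exceeded both controls in 16 members (21.3% of all rows), and lay below both in 4 (27.2% of all rows). The medians over all members became 0.06 in library 1 and 0.52 in library 2, against -0.13 and 0.12 over all rows. At an unadjusted p under 0.05, 5 members were then higher (4.26% of all rows), and 0 passed the limma adjusted threshold. These 5 were Ndufa5, with a log2 fold change of 1.12, Ndufb10 with 0.68, Ndufs7 with 0.48, Ndufb7 with 0.47 and Ndufa10 with 0.41. Ndufb5 came to 0.40 and was no longer past that threshold (limma unadjusted p = 0.0786). Ndufs4 came to 0.29, Ndufa9 to 0.34, Ndufa2 to 0.24, Ndufa3 to 0.19 and Ndufv2 to 0.04, each more than 1.5 times lower than from the FPKM as deposited.

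For 12 members another gene holds a near-identical coding sequence (at least 90% identity over 80% of its length), so fragments may be shared and their values are uncertain. Their median log2 fold change was 0.04, and 3 of the 12 had both PAF KO libraries above both controls, against 21.5% of all tested rows. The 25 members without such a copy had a median of 0.46, and 20 of the 25 had both PAF KO libraries above both controls. Of the 8 members below both controls in library 2, 5 have a copy: Ndufb4, Ndufs3, Ndufs5, Ndufa12 and Ndufa11. Another 6 of the 12 lay above both controls in library 2: Ndufb3, Ndufs6, Ndufb2, Ndufa4, Ndufb7 and Ndufb11. Ndufa7 lay between the controls there. The part of the copies in these values was not tested.

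Each PAF KO library set alone against the controls, with the lone library assumed to vary like the controls, gave calls. With library 1 alone limma called 6 members, all higher (Ndufa10, Ndufa8, Ndufb10, Ndufb3, Ndufb5 and Ndufs1), where 6.27% of all rows were called higher and 14.4% lower. Their log2 differences lay between 0.39 for Ndufs1 and 0.58 for Ndufb10. With library 2 alone 22 members were called higher, where 34.1% of all rows were, and Ndufb4 and Ndufs3 were called lower, where 27.1% of all rows were. Both sets use the same controls.

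The assembly factors, which build the complex and are not part of it, gave a median of 0.39 in log2 fold change for 16 genes, with 0.07 in PAF KO library 1 and 0.77 in library 2. Both PAF KO libraries exceeded both controls for 8 of them, against 21.5% of all tested rows. With the length and GC trend removed the median was 0.25. Then 5 of the 16 had both PAF KO libraries above both controls, against 21.3% of all rows. Those of smallest p were Ndufaf4, Ndufaf8 (row 1810043H04Rik) and Ndufaf2. Ndufaf4 read 8.47 and 14.5 FPKM in PAF KO adenomas, against 5.96 and 6.32 FPKM in controls (log2 fold change 0.76, SE 0.30; limma adjusted p = 0.399). Ndufaf8 read 62.2 and 83.1 FPKM in PAF KO adenomas, against 46.8 and 52.0 FPKM in controls. Ndufaf2 read 22.4 and 56.9 FPKM in PAF KO adenomas, against 15.7 and 17.7 FPKM in controls. Ndufab1, left out by the naming rule, read 14.2 and 72.0 FPKM in PAF KO adenomas, against 6.74 and 9.71 FPKM in controls.

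Of the 7 mitochondrially encoded core subunits 1 was matched, and the others are not analysed here. This was mt-Nd4, a proton-pumping subunit, at 3542.5 and 2459 FPKM in PAF KO adenomas, against 1594 and 2122 FPKM in controls. Its log2 fold change of 0.68 (SE 0.35) came to 0.10 with the length and GC trend removed. The PAF KO libraries then had opposite directions, at 0.80 in library 1 and -0.60 in library 2. Among 12 regulators of mitochondrial biogenesis the median log2 fold change was -0.06. For 3 of them both PAF KO libraries lay above both controls and for 4 below both, against 21.5% and 30.2% of all tested rows. The coactivator Ppargc1b read 4.45 and 3.76 FPKM in PAF KO adenomas, against 1.87 and 1.64 FPKM in controls (log2 fold change 0.89, SE 0.20; limma adjusted p = 0.291). The related Pprc1 read 12.8 and 9.75 FPKM in PAF KO adenomas, against 16.0 and 17.5 FPKM in controls (log2 fold change -0.54, SE 0.20). With the length and GC trend removed Ppargc1b came to 1.29 and Pprc1 to -0.17. The mitochondrial RNA polymerase Polrmt had a log2 fold change of -0.41 (SE 0.19), which turned to 0.12 with the length and GC trend removed.

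**Figure D4:**
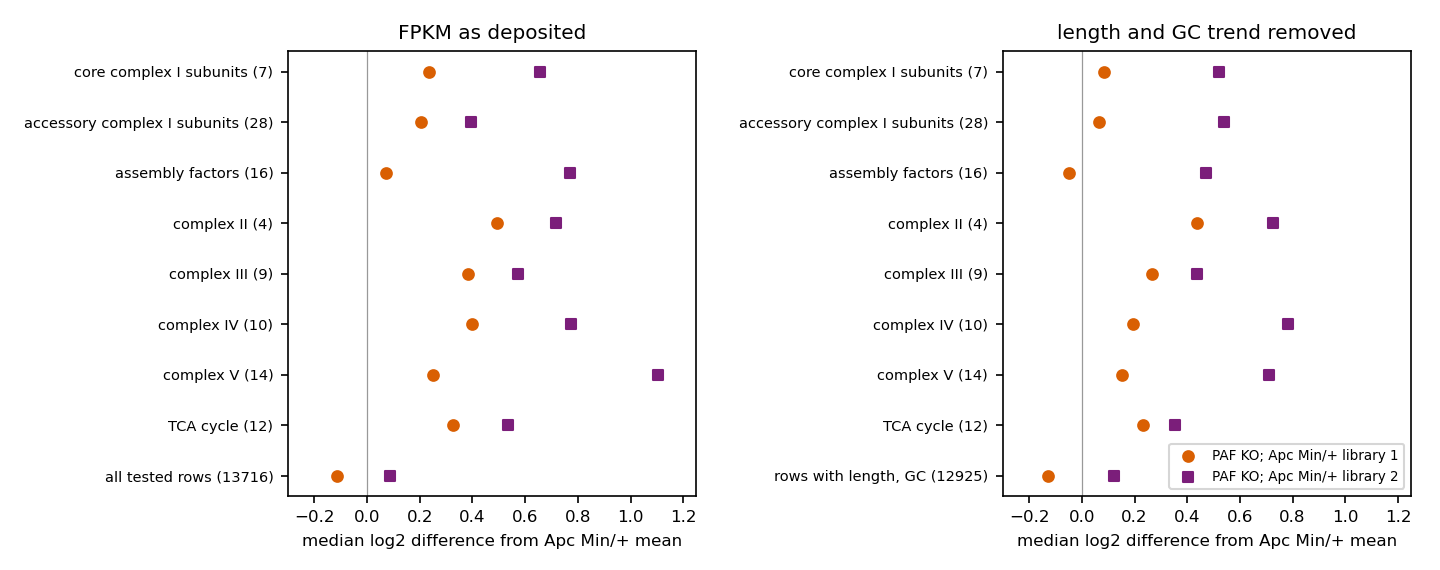
Median log2 difference of PAF KO library 1 (circles) and library 2 (squares) from the mean of the controls for complex I subunits, assembly factors, complexes II to V, the TCA cycle and all rows, with the number of genes in brackets. The left panel uses FPKM as deposited and the right panel has the trend on transcript length and GC content removed. Core and accessory complex I subunits lie at 0.24 and 0.20 in library 1 as deposited, and at 0.08 and 0.07 with the trend removed.

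Complex I did not stand alone among mitochondrial genes. Subunits of complexes II to V gave a median of 0.59 in log2 fold change for 37 tested genes, with 0.38 and 0.77 in the PAF KO libraries. Of these 37 genes, 27 had both PAF KO libraries above both controls, against 21.5% of all tested rows. Enzymes of the TCA cycle had a median of 0.50 over 12 genes, with 0.33 and 0.54 in the PAF KO libraries. Both PAF KO libraries exceeded both controls for 7 of these 12. With the length and GC trend removed the medians were 0.40 for complexes II to V and 0.33 for the TCA cycle. Both PAF KO libraries then exceeded both controls for 26 of the 37 genes and 8 of the 12. For complex I this held for 16 of the 37 members, and for all rows it was 21.3%. The difference between these lists and complex I was not tested. Sdhd, a membrane anchor of complex II, read 169 and 293 FPKM in PAF KO adenomas, against 114 and 107 FPKM in controls. Uqcr10 of complex III read 469 and 538 FPKM in PAF KO adenomas, against 279 and 337 FPKM in controls, and Cox8a of complex IV read 839 and 1017 FPKM against 552 and 601 FPKM in controls. Atp5k of complex V read 334 and 1113 FPKM in PAF KO adenomas, against 85.5 and 108.4 FPKM in controls. Idh3b, of the NAD-dependent isocitrate dehydrogenase that makes NADH, read 112 and 130.0 FPKM in PAF KO adenomas, against 73.9 and 75.2 FPKM in controls. The other genes of smallest p in these lists were Sdha and Sdhb of complex II, Uqcrfs1 and Uqcrc2 of complex III, Cox6a1 and Cox5a of complex IV, Atp5g3 and Atp5o of complex V, and Suclg1 of the TCA cycle. Their log2 fold changes lay between 0.57 for Sdha and 0.98 for Atp5o, and none passed the limma adjusted threshold. Both PAF KO libraries exceeded both controls in each, but choosing genes by smallest p favours groups that do not overlap.

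Markers of other cells moved with genotype or with 1 library. In tissue RNA, more cells of a type and more RNA per cell cannot be told apart. Summed over 8 epithelial markers the level was 7909 and 7980 FPKM in PAF KO adenomas, against 6855 and 6774 FPKM in controls. Krt19 and Krt8 exceeded both controls in both PAF KO libraries, whereas Cdh1 and Vil1 lay below both controls in both. For Epcam, Krt18, Krt20 and Cdx2 the PAF KO libraries did not lie on the same side of both controls. The 9 markers of enterocytes, cells rich in mitochondria, summed to 12177 and 945 FPKM in PAF KO adenomas, against 7822 and 8405 FPKM in controls. In PAF KO library 1 the largest part of the sum was Apoa1, at 4799 FPKM, between the controls (4619 and 5001 FPKM). Apoa4, Fabp1, Alpi and Lct (3251, 2367, 511 and 36.3 FPKM) exceeded both controls there. Sis, Anpep, Fabp2 and Slc5a1 (71.8, 259, 813 and 68.2 FPKM) lay below both. The 7 goblet cell markers summed to 6760 and 7055 FPKM in PAF KO adenomas, against 4532 and 4976 FPKM in controls. In library 2 Tff3 and Agr2 carried that sum, at 3614 and 2105 FPKM, while Zg16 and Fcgbp lay below both controls, at 853 and 105 FPKM. The 7 smooth muscle markers summed to 216 and 740 FPKM in PAF KO adenomas, against 202.5 and 204 FPKM in controls, and 6 fibroblast markers to 332.5 and 685 FPKM, against 262 and 266 FPKM in controls.

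Endothelial markers summed to 58.5 and 65.9 FPKM in PAF KO adenomas, against 49.96 and 50.4 FPKM in controls. Pecam1, Kdr, Vwf and Tek exceeded both controls in both PAF KO libraries. Cdh5 lay below both controls, at 25.9 and 12.4 FPKM in PAF KO adenomas, against 26.3 and 27.6 FPKM in controls. Among blood cells, neutrophil markers summed to 142 and 92.9 FPKM in PAF KO adenomas, against 15.8 and 24.7 FPKM in controls. Mast cell markers summed to 1341 and 1129 FPKM in PAF KO adenomas, against 2650.1 and 3027 FPKM in controls. The mast cell marker Kit lay on either side of the controls, at 9.14 and 11.2 FPKM in PAF KO adenomas, against 10.2 and 10.3 FPKM in controls. T and NK cell markers summed to 35.8 and 38.6 FPKM in PAF KO adenomas, against 76.2 and 73.8 FPKM in controls. Most of each sum was Gzma and Gzmb, which with Cd3e and Cd8a lay below both controls in both PAF KO libraries. In library 2 Nkg7 lay between the controls. Cd3d exceeded both controls there, at 1.35 FPKM against 0.428 and 0.737 FPKM in controls. Macrophage markers summed to 80.5 and 148 FPKM, against 113 and 126 FPKM in controls. Cd68 lay below both controls in both PAF KO libraries, at 12.1 and 10.5 FPKM against 16.6 and 19.1 FPKM. The other macrophage markers did so in library 1 and exceeded both controls in library 2. B and plasma cell markers summed to 199.8 and 878 FPKM, against 251 and 236 FPKM in controls. Nearly all of that sum was Jchain (row Igj), at 190 and 839 FPKM in PAF KO adenomas, against 239 and 226 FPKM in controls. The 6 markers of skeletal and heart muscle summed to 1.16 and 3.35 FPKM in PAF KO adenomas, against 2.66 and 1.998 FPKM in controls, with Myh2 at 0 in all 4 libraries. The 5 fat markers summed to 9.46 and 5.77 FPKM in PAF KO adenomas, against 7.17 and 6.48 FPKM in controls, and the brown fat gene Ucp1 was at most 0.0266 FPKM. Nearly all of the fat sum was Cidea, at 9.46 and 5.26 FPKM in PAF KO adenomas, against 7.17 and 6.48 FPKM in controls. The part of the other cell types in the complex I values was not tested.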

How the data were processed

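RNA was measured by sequencing in 4 libraries of small-intestinal adenomas, 2 PAF KO; APC Min/+ and 2 APC Min/+. The authors deposited 1 table of FPKM values; TopHat2, Cuffdiff and the mouse build mm9 appear, per the submitters' processing notes, without settings or versions. FPKM are scaled for depth and length, so no count test was used. Of 29955 rows, 84 repeats of a symbol were dropped, keeping the row with the higher mean. The 13716 rows averaging 1 FPKM or more went into a linear model of log2(FPKM + 1) in limma 3.58.1 (R 4.3.3), with variances moderated along a trend on mean level and p-values adjusted by the Benjamini-Hochberg method over all tested rows.

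Transcript length and GC content came from GENCODE principal transcripts (GRCm38), whose build differs from the table's, so no gene coordinates were tied to the values; all 37 members matched. The trend removal fitted splines of length and GC content (4 degrees of freedom each) over 12580 protein-coding rows. Near-identical copies were sought with blastn 2.17.0. Fragments per library were estimated from the modal small product of FPKM and length, among single-transcript genes of 1000 bases or longer. The lengths behind the FPKM are unknown, so these depths are approximate.

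Members were named, with full values for core subunits, the 3 accessory subunits of smallest p, the 3 of lowest fold change, X-linked members and rows that are not subunits; of other lists, up to 3 of smallest p. Members outside these for which values are printed were chosen after their values were seen. Some items that this rule names are not reported here, though the counts and medians include them. The members and lists were chosen with earlier results of these data known. The fit and the trend removal were tested on simulated data. Alternatives were other pseudocounts, filters and scalings, no variance trend, the replicate number as a block and leaving out each library.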

Additional observations from a re-analysis of the deposited data

How the results depend on the processing

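The main values were 10 rows called over the whole table, 3 members higher at an unadjusted p under 0.05, 23 members higher in both PAF KO libraries, and medians of 0.46 (core) and 0.42 (accessory). The number of rows called was 4 with no filter, 0 with the length and GC trend removed and 0 among protein-coding rows alone (chosen after seeing the data). By limma at an unadjusted p under 0.05, 550 rows were higher with the trend removed. Members higher at an unadjusted p under 0.05 numbered 6 under median centring and 5 with the trend removed. Leaving out 1 library gave 0 to 8397 rows called, 0 to 24 such members, 23 to 28 members above the controls, core medians of 0.24 to 0.66 and accessory medians of 0.20 to 0.45; the extremes of the rows called were 0 without either control, 2833 without PAF KO library 2 and 8397 without PAF KO library 1. With the replicate number as a block, 13 rows were called and 4 members were higher at an unadjusted p under 0.05, and no member was called. Same-numbered deviations correlated at -0.115, and the crossed pairing, added after seeing the data, gave 13 rows and 2 such members. Medians of the subunits kept their sign in every alternative.

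The sign of some members turned. Ndufa7 came to 0.0005 under quantile scaling and 0.026 under median centring. With the trend removed Ndufa1 came to -0.26, Ndufa4 to -0.0597, Ndufb11 to -0.0284, Ndufc2 to -0.29 and Polrmt to 0.12. The median of the biogenesis regulators was 0.004 under quantile scaling, and lay between -0.086 and 0.0375 when 1 library was left out. Leaving out 1 library moved Ndufa7 between -0.18 and 0.11, Ndufa11 between -0.26 and 0.009, Ndufa12 between -0.43 and 0.21, Ndufb11 between -0.071 and 0.30, Ndufb2 between -0.27 and 1.497, Ndufb8 between -0.32 and 0.0599, Ndufc2 between -0.21 and 0.35, Ndufs3 between -0.45 and 0.24 and Ndufs5 between -0.45 and 0.28. All of these but Ndufa7 turned sign without PAF KO library 2, Ndufa7 without PAF KO library 1, and Ndufa7, Ndufa12 and Ndufs5 also without control library 2. Of the 37 members 26 kept their sign in every alternative. The cause of these changes was not tested. Estimated fragments were fewest for Ndufb4 in PAF KO library 2 (14.3), the deepest library, and for Ndufa4l2 in all libraries (34.7 to 60.3).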
